A study of Mus musculus with 1 sample.

Results

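The genes described here are 44 members of the nuclear receptor family, chosen by name, in cultured mouse lung cancer cells. They were measured with every probe set of the array that names only that gene. The HNF4 genes were left out of the list. Of the 44 genes, 42 were measured by 108 probe sets, out of 18193 genes and 34945 one-gene probe sets on the array. Nr1h2 and Nr2e3 had no such probe set and were not analysed here. The sample was 1 culture of a line labelled KR Primary, derived from a KR tumor of the B6/J strain, in a series whose title speaks of kras tumors. It was grown in RPMI1640 with 10% serum, collected at 80 to 90% confluency, without any stated treatment, and hybridized to 1 Affymetrix array. The labels do not spell out KR, name no second line or culture, and give no allele. There was no replicate and no other group, so the values carry neither replicate error nor p-value.

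Nuclear receptors are transcription factors that bind DNA through a pair of zinc fingers and carry a second domain that holds small lipophilic ligands, such as steroids, retinoic acid, thyroid hormone, fatty acids or sterols. Several sensors of diet-derived lipids and vitamins bind DNA together with a retinoid X receptor (RXR), steroid receptors bind as pairs of themselves after release from chaperones, and orphan receptors act without a known hormone. In the lung, glucocorticoids drive the maturation of the alveolar epithelium, and retinoic acid acts in airway branching and in the formation of alveoli.

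Each signal was read against background genes of the same array, which encode receptors of smell and bitter taste and the keratin-associated proteins of hair. The 95th percentile of their 126 probe sets, a signal of 16.8, is called the lower threshold, and the highest of them, 60.6, the upper threshold. A gene passed a threshold when any of its probe sets did. Where 1 signal is given for a gene with several probe sets, it is the highest, and others of that gene can lie at background. A signal is in arbitrary fluorescence units of a probe set, and probe sets differ in brightness, so a higher signal of one gene than of another does not mean more RNA. All 6 markers of epithelium were above the upper threshold, with signals from 1150.2 to 7600.2. Of 5 lung epithelial markers, 2 were above the lower threshold and 0 above the upper one, and Nkx2-1, the lung identity factor, read 7.66. Of the leukocyte, fibroblast and endothelial markers, 1 of 4, 1 of 5 and 2 of 4 were above the lower threshold and 0 above the upper one, and their highest signals were 47.1, 19.3 and 30.3. In a bulk sample, fewer cells with a transcript and less of it per cell cannot be told apart.

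Nuclear receptor transcripts were divided between clear signal and background. Of the 42 measured genes, 24 (57.1%) were above the lower threshold and 18 (42.9%) above the upper one, and 18 were not above the lower threshold. Of all measured genes, 63.3% were above the lower threshold and 47.5% above the upper one. Both shares of receptors lie somewhat below these, without matching for the number of probe sets per gene. The 18 receptors above the upper threshold were Nr1d2, Rora, Ppard, Pparg, Rarg, Rxra, Rxrb, Thra, Nr3c1, Esr1, Esrra, Nr4a1, Nr4a2, Nr2c1, Nr2c2, Nr2f2, Nr2f6 and Nr6a1. The 6 between the lower threshold and the upper threshold were Rorb, Ppara, Nr1h4, Rara, Nr3c2 and Esrrb. The median of the receptors' highest signals was 26.3, against 48.3 over all genes. Of single probe sets, 57 of 108 (52.8%) of the receptors and 60.9% of the array were above the lower threshold, and 27 (25.0%) and 41.1% above the upper one.

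Receptors were measured by 1 to 9 probe sets each. Of the 16 receptors with 1 probe set, 6 were above the lower threshold, where 48.4% of all genes with 1 probe set were. Of the 9 receptors with 2 probe sets 5 were above it, and of the 10 with 3 or 4 probe sets 6 were, where the shares over all genes were 72.4% and 83.9%. All 7 receptors with 5 or more probe sets were above the lower threshold and above the upper one, where 90.9% and 82.4% of such genes were. Among 26 receptors with at least 2 probe sets, the probe sets of 13 (50%) lay on both sides of the lower threshold. Of all such genes 32.9% did, without matching for the number of probe sets per gene. For these receptors the SD over the probe sets of 1 gene had a median of 1.53 on the log2 scale, near the 1.45 of all genes. Only Esrra, Nr2f6, Nr4a1, Pparg and Rxrb, the last 3 with a single probe set, had every probe set above the upper threshold. By the median of a gene's probe sets, 11 of 42 receptors were above the upper threshold in place of 18. The share of all genes by that rule was 41.0%, in place of 47.5%.

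**Figure D1:**
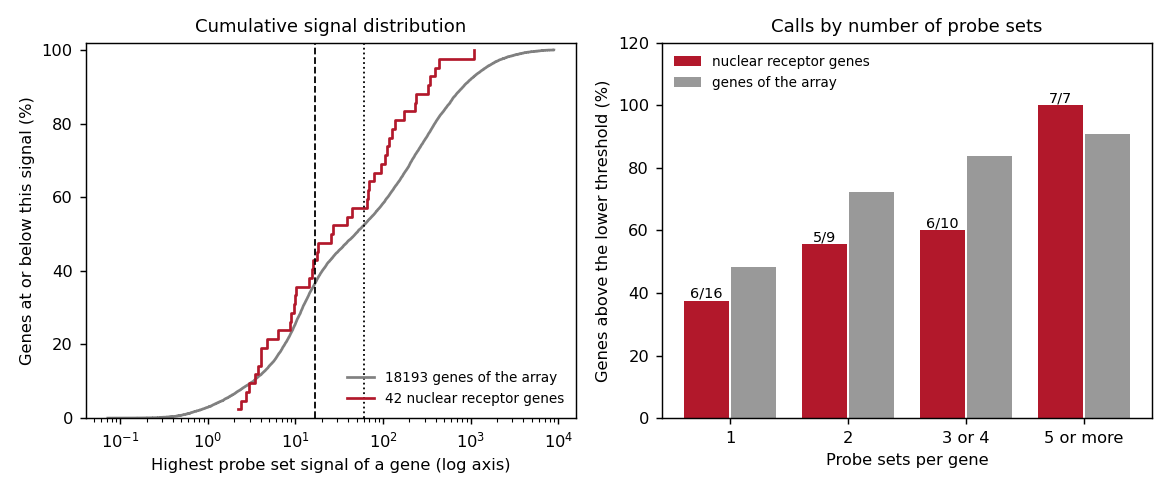
Left, the share of genes (%) whose highest probe set signal is at or below the value on the log axis, for 42 nuclear receptor genes and 18193 genes of the array, with the lower threshold (dashed, 16.8) and the upper threshold (dotted, 60.6); right, the share of genes above the lower threshold (%) by the number of probe sets per gene, with the counts of receptors printed on their bars. The receptor curve runs above that of the array at both thresholds, and 6 of 16, 5 of 9 and 6 of 10 receptors with 1, 2 and 3 or 4 probe sets passed the lower threshold, beside 48.4%, 72.4% and 83.9% of the array's genes.

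**Figure D2:**
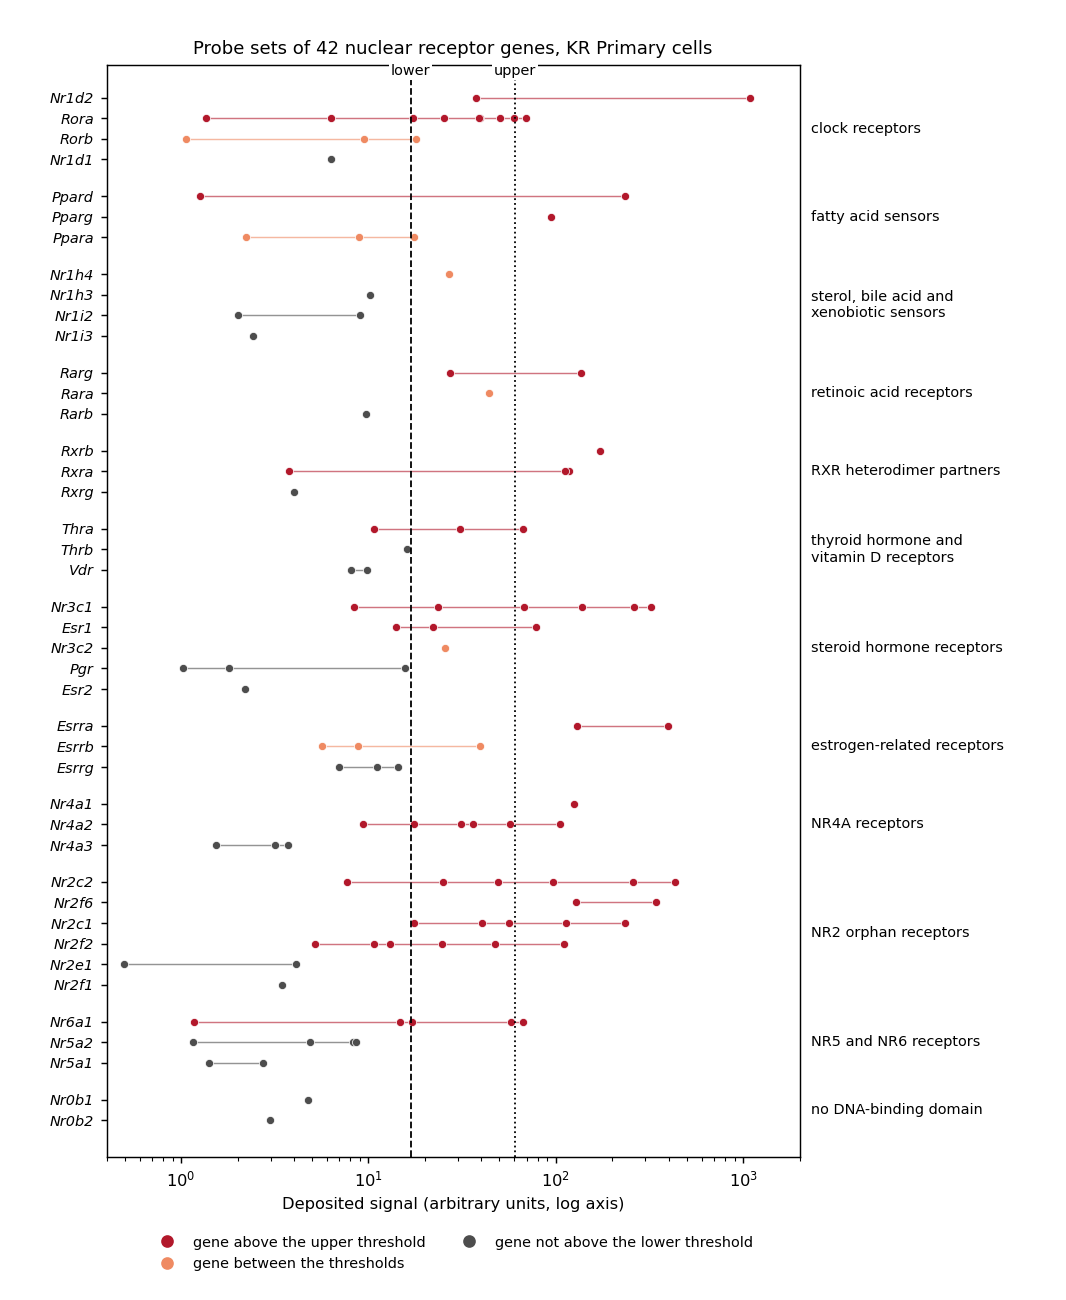
Signal of each of 108 probe sets (points, log axis) of 42 nuclear receptor genes in 1 sample, grouped by the kind of receptor, with lines joining the probe sets of a gene; the dashed line is the lower threshold (16.8) and the dotted line the upper threshold (60.6). Esrra, Nr2f6, Rxrb, Nr4a1 and Pparg have all their points to the right of the upper threshold, while probe sets of Ppard (1.26 and 236) and Rxra (3.75 to 118) lie on both sides of the lower threshold.

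The clock receptors REV-ERB and ROR act on the same DNA element in opposite directions, REV-ERB as repressor and ROR as activator of the clock gene Arntl. Nr1d2, encoding REV-ERB beta, gave 1094 on one probe set and 37.5 on the other, both over the lower threshold, and 1094 was the highest signal of any receptor probe set. Nr1d1, encoding REV-ERB alpha, had 1 probe set, which read 6.29 and did not pass. Rora, encoding ROR alpha, had 9 probe sets with a lowest signal of 1.35, a median of 39.1 and a highest of 69.0. Of these, 7 were above the lower threshold and 1 above the upper one, so most of its probe sets read low signals over the lower threshold. Rorb, a receptor best known from retina and brain, read 18.0, 9.52 and 1.06, and only the first lay just above the lower threshold.

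Of 19 measured clock genes around these receptors, 17 (89.5%) were above the lower threshold and 10 (52.6%) above the upper one. The shares over all genes were 63.3% and 47.5%. Bhlhe40, a repressor in the clock, gave 1564, and the kinase genes Csnk1e and Csnk1d, whose proteins act on the PER proteins, gave 1031 and 712. Arntl, the target that both receptor classes share, gave 80.1 and 21.7, and Clock, encoding its partner, gave 313 on the highest of 4. Npas2, encoding an alternative partner of ARNTL, read 1.38 and 0.468. Clock transcripts cycle over the day, and the array holds 1 collection, whose time the labels do not give.

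The promoters of the REV-ERB pair are shown because the genes lay on opposite sides of the lower threshold and their start sites differ in CpG content. They run from 250 bases before to 50 after the RefSeq start in build GRCm38.p6, 5′ to 3′ on the strand of the gene, with each CpG dinucleotide in capitals.
Nr1d2, chr14:18239057-18239356, minus strand: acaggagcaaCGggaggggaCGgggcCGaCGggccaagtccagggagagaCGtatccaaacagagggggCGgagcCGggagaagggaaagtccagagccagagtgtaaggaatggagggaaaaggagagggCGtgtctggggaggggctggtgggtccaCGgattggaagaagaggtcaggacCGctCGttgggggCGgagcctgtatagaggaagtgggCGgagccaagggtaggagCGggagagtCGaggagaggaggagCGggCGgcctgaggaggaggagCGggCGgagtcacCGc
Nr1d1, chr11:98775328-98775627, minus strand: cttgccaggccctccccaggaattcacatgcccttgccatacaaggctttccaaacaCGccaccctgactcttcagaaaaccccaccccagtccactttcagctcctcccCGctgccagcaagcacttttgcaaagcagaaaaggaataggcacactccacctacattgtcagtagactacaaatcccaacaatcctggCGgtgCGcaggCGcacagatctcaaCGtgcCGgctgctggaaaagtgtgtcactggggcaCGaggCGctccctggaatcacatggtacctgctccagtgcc
The Nr1d2 window held 20 CpG at 65.7% GC, a ratio of 0.806 between the observed CpG and those expected from its C and G content. The Nr1d1 window held 9 CpG, a ratio of 0.404, at 56.3% GC. Searched on both strands, the Nr1d2 window held 5 matches to GGGCGG, the GC box bound by SP1, and 1 to AGGTCA, the half-site of many nuclear receptors. In the Nr1d1 window neither string was found. A match describes letters and not a bound site.

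Among the fatty acid sensors, the PPAR receptors, which turn on genes of lipid storage and oxidation, Pparg gave 94.4 on its only probe set, above the upper threshold. Ppard read 236 and 1.26, so its call rests on 1 of 2 and their spread was the widest of any receptor, with an SD of 5.34 on the log2 scale. A further probe set that names both Ppard and another gene read 15.8, below the lower threshold, and was not counted. Ppara read 17.4, 8.95 and 2.21, with 1 of 3 just above the lower threshold. Of 16 measured PPAR targets, 10 (62.5%) were above the lower threshold and 9 above the upper one, where 63.3% and 47.5% of all genes were. Plin2, which coats lipid droplets, gave 2046, and the fatty acid oxidation enzymes Acadl and Acadm gave 1563 and 566. The other Acadl probe set read 9.12. Lpl, a lipase of fat and muscle, read at most 1.70. Fatty acid binding proteins, which carry such ligands in the cell, passed the lower threshold in 4 of 7 genes. Fabp5, the epidermal type, gave 4691 and 1930.5, and Fabp2, the intestinal type, 116, while Fabp3 read 22.5 and Fabp7, the brain type, 2.01.

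Sensors of sterols, bile acids and foreign compounds were mostly at background. Nr1h3, encoding the oxysterol receptor LXR alpha, read 10.2, and the other LXR gene, Nr1h2, was not analysed here. Nr1i2, encoding the xenobiotic sensor PXR, read 9.0 and 2.0, and Nr1i3, encoding its relative CAR, read 2.41. Nr1h4, encoding the bile acid receptor FXR, read 26.9 on 1 probe set, between the lower threshold and the upper threshold. Thus 1 of 4 measured sensors was above the lower threshold and 0 above the upper one, beside 63.3% and 47.5% of all genes. Nr1h3, Nr1h4 and Nr1i3 have 1 probe set each, and of all such genes 48.4% and 32.6% passed.

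Target lists of these sensors passed at shares near or below those of all genes, 63.3% and 47.5%. Of 11 LXR targets, 7 (63.6%) were above the lower threshold and 5 (45.5%) above the upper one, with the desaturase gene Scd2 at 5373, the phospholipid enzyme gene Lpcat3 at 683 and the lipogenic regulator gene Srebf1 at 669, and with Smpdl3a lowest at 6.93. The cholesterol exporter gene Abca1, a textbook LXR target named after its value was seen, read at most 11.8. Of 8 FXR targets, 3 were above the lower threshold and 1 above the upper one. These were Sqstm1, an autophagy adaptor gene with many other regulators, Fetub at 31.1 and the bile acid exporter subunit gene Slc51a at 19.2. Sqstm1 gave 1628 on one probe set and 16.3 on the other. The bile acid importer gene Slc10a2 read 0.757. Of 9 PXR and CAR targets, 4 were above the lower threshold and 3 above the upper one, namely the exporter genes Abcc3 and Abcb1a at 437 and 212 and the cytochrome gene Cyp3a13 at 198, with the esterase gene Ces2a lowest at 1.07. Every target list here holds genes with further regulators, so the counts do not show whether a receptor was active.

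Of the retinoic acid receptors, Rarg gave 137 and 27.1, of which the first passed the upper threshold. Rara, the most widely expressed of the 3, gave 44.1 on its single probe set, between the thresholds. Rarb, itself a known retinoic acid target, read 9.67 and was not above the lower threshold. RXR, the shared partner of the vitamin, thyroid and lipid receptors, was represented by Rxrb at 173 and by Rxra at 118, 112 and 3.75. Rxrg, the form of muscle and brain, read 4.02.

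Of 15 genes that supply or remove retinoids, 6 passed the lower and 3 the upper threshold, beside 63.3% and 47.5% of all genes. Rdh10 and Rdh11, genes of the retinol dehydrogenase family, reached 3967 and 609, and Aldh1a1, encoding an enzyme that makes retinoic acid, gave 299. Crabp1, a retinoic acid binding protein gene, was lowest at 1.93. Among 11 retinoic acid targets, 5 (45.5%) were above the lower threshold and 1 (9.09%) above the upper one. That gene was Tgm2, a transglutaminase gene, at 70.6 on the highest of 6 probe sets, followed by the retinal reductase gene Dhrs3 at 55.0 and the homeobox gene Meis1 at 25.1, and Rarres2 was lowest at 2.91. Cyp26a1, the retinoic acid hydroxylase and a classical target, named after its value was seen, read 16.0, just below the lower threshold.

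The thyroid hormone receptor gene Thra gave 66.5, 30.9 and 10.8, with 1 of 3 probe sets above the upper threshold, and Thrb, the liver and pituitary form, read 16.0, just below the lower threshold. Vdr, the vitamin D receptor, read 9.81 and 8.04, not above the lower threshold on either probe set. Of 7 thyroid hormone targets, 5 (71.4%) were above the lower threshold and 4 (57.1%) above the upper one, beside 63.3% and 47.5% of all genes. The highest were the calcium pump gene Atp2a2 at 2737, the malic enzyme gene Me1 at 1598 and the transcription factor gene Klf9 at 561. The deiodinase gene Dio1 was lowest at 2.15. Of 5 measured genes listed as vitamin D targets, only the phosphate transporter gene Slc34a2, at 24.6, was above the lower threshold. Whether each listed gene responds to the vitamin D receptor in mouse cells was not tested. Cyp24a1, the vitamin D hydroxylase gene that the receptor induces, read at most 6.86, Camp 3.58 and the calcium-binding protein gene S100g 0.295.

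Among the steroid hormone receptors, Nr3c1, encoding the glucocorticoid receptor, was measured most fully. Its 6 probe sets had a lowest signal of 8.35, a median of 103 and a highest of 324, and 5 were above the lower threshold and 4 above the upper one. Nr3c2, encoding the mineralocorticoid receptor, gave 25.6 on 1 probe set, between the thresholds. Esr1, encoding estrogen receptor alpha, gave 78.6, 22.1 and 14.0, with 1 of 3 above the upper threshold. Esr2, encoding estrogen receptor beta, read 2.20, and Pgr, the progesterone receptor and an estrogen target, read 15.6, 1.79 and 1.02, none above the lower threshold.

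Glucocorticoid targets passed the lower threshold in 15 of 16 genes and the upper one in 14, beside 63.3% and 47.5% of all genes. Every target list holds genes with further regulators, so these counts do not show whether a receptor was active. Anxa1, which encodes the anti-inflammatory annexin A1, gave 6678 on its higher probe set and 54.0 on the other, the metallothionein gene Mt1 gave 3166 and 14.4, and Errfi1, an inhibitor of EGF receptor signalling, gave 1824 and 841. Fkbp5, a target and co-chaperone of the receptor, gave 203 on the highest of 3 probe sets, and the exception was Lcn2 at 8.26. Hsd11b1, encoding the enzyme that regenerates active glucocorticoid from cortisone or its rodent counterpart, gave 173, above the upper threshold, and Hsd11b2, encoding the enzyme that inactivates it, read 21.7. Of 9 estrogen and progesterone targets, 6 (66.7%) passed the lower threshold, near the share of all genes, and 2 (22.2%) the upper one. The highest were Tff1, a secreted trefoil peptide gene of stomach, at 309.5, Igfbp4 at 205 and the lactoferrin gene Ltf at 38.3. Myb was lowest at 4.29.

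Chaperones that hold steroid receptors ready for ligand were all above the upper threshold, in 9 of 9 measured genes, beside 47.5% of all genes. The heat shock protein genes Hspa8, Hsp90aa1 and Hspa4 reached 6828, 5951 and 2196, and Fkbp5 was the lowest. The list of genes that supply or remove steroids, thyroid hormone, vitamin D and oxysterols had 15 measured genes. Of these, 7 were above the lower threshold, beside 63.3% of all genes, and 3 above the upper one. These 3 were Hsd17b11 at 1857 and Hsd17b4 at 531, dehydrogenase genes with lipid substrates as well, and Hsd11b1. Cyp27b1, the vitamin D activating enzyme gene, was lowest at 0.690.

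The estrogen-related receptors are orphan receptors that drive mitochondrial genes together with PGC-1 coactivators. Esrra, encoding ERR alpha, gave 396 and 130.1, both above the upper threshold. Esrrb, known from embryonic stem cells, read 39.2, 8.81 and 5.67, and the only one above the lower threshold is a probe set whose name ends in _x_at, a mark of possible cross-hybridization. Esrrg, the form of heart and other oxidative tissue, read 14.3, 11.2 and 6.93, none above the lower threshold, and it passed when that threshold was set at the 90th percentile. Of 11 ERR targets, 9 (81.8%) were above the lower threshold, all 9 also above the upper one, beside 63.3% and 47.5% of all genes. As for every target list here, the count does not show whether the receptor was active. Atp5b, an ATP synthase subunit gene, gave 3813, the cytochrome c gene Cycs 3514 and the cytochrome oxidase subunit gene Cox5b 3026, while Pdk4, a kinase gene of fasting metabolism, read 8.52. The coactivator genes Ppargc1a and Ppargc1b read at most 21.1 and 25.4, between the thresholds, and only 1 of the 5 Ppargc1a probe sets passed the lower threshold.

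The NR4A receptors are immediate-early genes, induced within a short time by growth factors and stress, and are held to act without a ligand. Nr4a1 gave 125 on its single probe set. Nr4a2 had 6 probe sets with a lowest signal of 9.35, a median of 33.6 and a highest of 105, of which 5 were above the lower threshold and 1 above the upper one. Nr4a3 read 3.70, 3.18 and 1.54, none above the lower threshold. The NR4A genes thus lay on both sides of the lower threshold, with Nr4a3 low on all 3 of its probe sets.

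The orphan receptors of subfamily 2 included several of the clearest calls. Nr2f6, a COUP-TF relative, gave 345 and 128, both above the upper threshold. Nr2c1 and Nr2c2 encode the testicular receptors TR2 and TR4, which bind direct repeats of the half-site. Nr2c1 gave 234, 114, 56.4, 40.2 and 17.4, all above the lower threshold. The last lay just above it, on a probe set whose name ends in _x_at. Nr2c2 had 6 probe sets from 7.64 to 434 with a median of 72.9. Of these, 5 were above the lower threshold and 3 above the upper one. Nr2f2, encoding COUP-TFII of mesenchyme, veins and other tissues, had 6 probe sets from 5.16 to 111 with a median of 18.9, and 3 were above the lower threshold. Its relative Nr2f1, encoding COUP-TFI of the nervous system, read 3.47, and Nr2e1, a receptor of neural stem cells, read 4.08 and 0.498.

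Of the receptors of subfamilies 5 and 6, only Nr6a1 passed. Nr5a1, the regulator of steroid-producing tissue, read 2.73 and 1.41, and Nr5a2, a receptor of liver, pancreas and gut, read at most 8.57 on 4 probe sets. Nr6a1, encoding the germ cell nuclear factor of embryo and germ cells, gave 67.1, 57.9, 17.1, 14.7 and 1.17, with 3 of 5 probe sets above the lower threshold and 1 above the upper one. Nr0b1 and Nr0b2 encode DAX1 and SHP, which lack the zinc fingers and repress other receptors, and read 4.74 and 2.98. Nr0b2 is also a target of FXR.

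Coregulators, the proteins that receptors bring to their target genes, were above the lower threshold on at least 1 probe set in every measured gene. Of all genes 63.3% were, and of those with 3 or 4 probe sets 83.9%. Among single probe sets, 33 of 41 of the coactivators and 27 of 30 of the corepressors passed, beside 60.9% of the array. All 15 coactivator genes were above the lower threshold and 13 above the upper one. Ncoa4 reached 1241 and the acetyltransferase genes Crebbp and Kat2b 622 and 619, with Kat2b passing on 1 of 3 probe sets. Ppargc1a was the lowest. All 10 measured corepressor genes were above the lower threshold and 9 above the upper one. Lcor, a ligand-dependent corepressor gene, reached 1531, C1d 1289 (lowest probe set 3.42) and Tbl1x, a subunit of the NCOR complex, 928. Hr, the hairless corepressor of the thyroid hormone and vitamin D receptors, was lowest at 33.2. Over the 17 companion lists, 126 of 179 genes, each counted once, were above the lower threshold and 93 above the upper one, beside 63.3% and 47.5% of all genes.

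**Figure D3:**
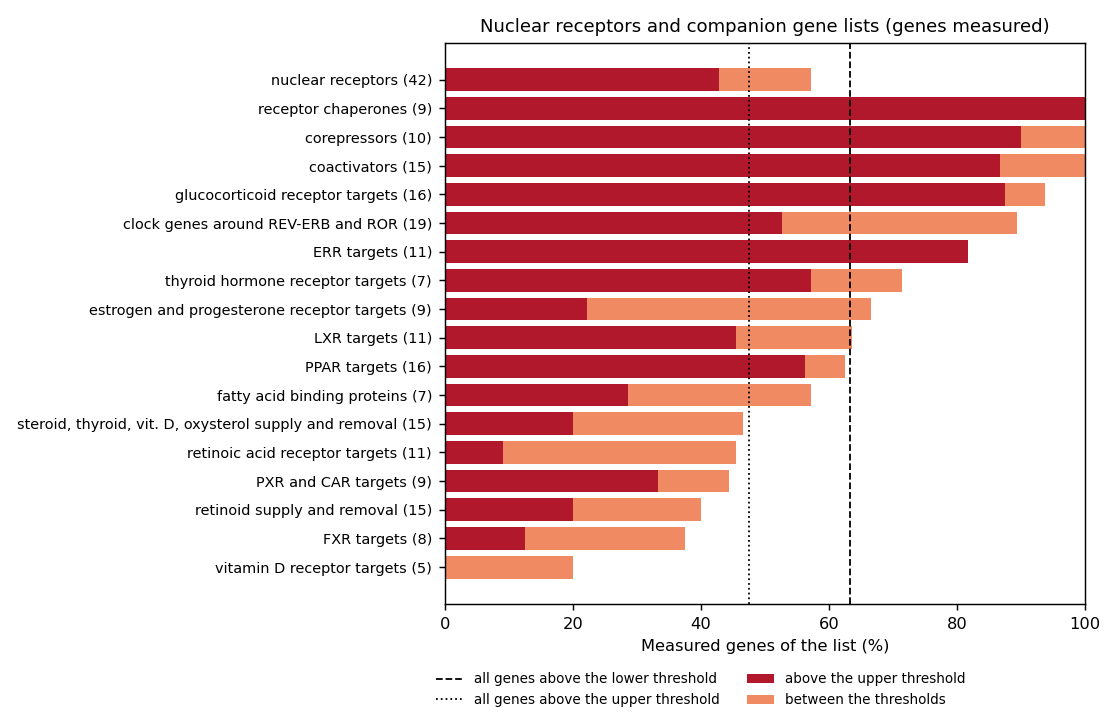
Share of measured genes (%) above the upper threshold (dark) and between the lower threshold and that limit (light) for 42 nuclear receptors and 17 companion lists, with the number of genes measured in brackets; the dashed and dotted lines mark the shares of all genes above the lower threshold (63.3%) and above the upper one (47.5%). The coactivator, corepressor and chaperone bars reach 100% at the lower threshold, the 42 receptors reach 57.1%, and the vitamin D target bar, 1 of 5 genes, is the shortest.

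Other transcription factor families were chosen by symbol and set beside the receptors. By genes above the lower threshold the receptors (57.1%) lay between the 16 KLF factors (81.2%) and the 57 SOX and forkhead factors (49.1%), with 63.3% over all genes. The same order held for genes above the upper threshold (42.9% between 68.75% and 29.8%). It also held for single probe sets above the lower threshold (52.8% between 78.3% and 44.0%). By single probe sets above the upper threshold the receptors were lowest at 25.0%, against 65.2% and a close 26.9%, with 41.1% over the array. With 1 sample these differences have no test. Within the receptors, 10 of 17 measured genes of subfamily NR1, 6 of 9 of NR2 and 5 of 8 of NR3 were above the lower threshold (58.8%, 66.7% and 62.5%), all near the share of all genes, and 6, 6 and 3 (35.3%, 66.7% and 37.5%) were above the upper one, beside 47.5% of all genes.

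Promoters were compared by their CpG content, since CpG-rich promoters are known from broadly expressed genes and CpG-poor ones from tissue-restricted genes. RefSeq promoters were at hand for 41 of the 44 receptor genes and 39 of the 42 measured ones, and for genes with several starts their mean was taken. The 16 receptors above the upper threshold had a median of 26 CpG in 300 bases, the 6 between the thresholds 12.75, and the 17 not above the lower threshold 13.5. The same order of the first and last class was seen over all genes with a promoter, with medians of 22 and 7. An observed over expected ratio above 0.6 was found in 10 of 16 receptors above the upper threshold (62.5%) and 5 of 17 not above the lower threshold (29.4%), against 78.2% and 26.2% of the array's genes in those classes. Between the thresholds it was found in 1 of 6 receptors (16.7%), against 50.5% of the array's genes. Over all classes the shares were 41.0% of receptors and 55.7% of genes. A CpG-rich and a CpG-poor window are shown as examples, those of Nr2f6, with the most CpG of the 39 receptors, and of Nr1i3, again with CpG in capitals. Nr1i3 is not the lowest, since Nr2f2 and Nr1i2 had 2 CpG each, and by ratio Rora (1.05) and Nr4a2 (1.04) stood above Nr2f6.
Nr2f6, chr8:71381903-71382202, minus strand: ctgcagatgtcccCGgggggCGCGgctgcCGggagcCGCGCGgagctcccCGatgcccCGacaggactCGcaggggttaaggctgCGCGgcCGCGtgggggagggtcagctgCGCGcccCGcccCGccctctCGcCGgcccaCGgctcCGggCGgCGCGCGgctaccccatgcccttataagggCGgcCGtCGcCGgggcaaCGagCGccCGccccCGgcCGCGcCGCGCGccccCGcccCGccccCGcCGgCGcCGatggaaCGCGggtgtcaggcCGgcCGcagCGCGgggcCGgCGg
Nr1i3, chr1:171213720-171214019, plus strand: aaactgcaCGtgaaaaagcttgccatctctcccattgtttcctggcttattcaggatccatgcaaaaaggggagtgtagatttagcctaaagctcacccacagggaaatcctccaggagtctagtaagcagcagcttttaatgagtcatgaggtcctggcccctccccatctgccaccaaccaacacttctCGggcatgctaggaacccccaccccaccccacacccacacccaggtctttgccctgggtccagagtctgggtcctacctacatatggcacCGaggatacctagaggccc
The Nr2f6 window held 53 CpG at a ratio of 1.035, and that of Nr1i3, a receptor of liver, held 3 at a ratio of 0.144. The exceptions ran both ways. Nr2f2 was above the upper threshold with 2 CpG, and Nr4a3, Esrrg and Nr2e1 were not above the lower threshold at ratios of 0.866, 0.817 and 0.770. Over 61 receptor promoters, GGGCGG was found on either strand in 27 (44.3%), against 35.7% of 32851 promoters. The half-site AGGTCA was found in 12 (19.7%) against 16.3%, the E-box CACGTG in 6 (9.84%) against 7.15%, the CRE TGACGTCA in 2 (3.28%) against 1.79% and TATAAA in 8 (13.1%) against 13.6%. Several promoters of a gene can overlap and share matches.

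**Figure D4:**
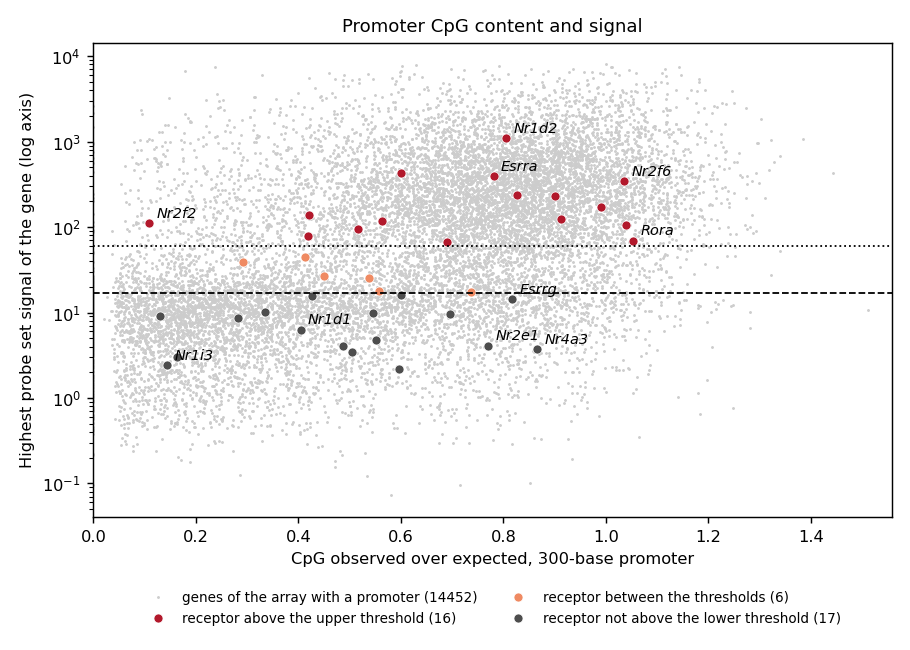
CpG observed over expected ratio of the 300-base promoter (horizontal, mean over the starts of a gene) against the highest probe set signal (vertical, log axis) for 39 nuclear receptor genes, coloured by class, and 14452 genes of the array (grey); dashed and dotted lines are the lower threshold and upper limit. Every receptor with a ratio above that of Nr4a3 (0.866, below the lower threshold) is above the upper one, and Nr2f2 is above the limit at a ratio of 0.109.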

How the data were processed

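Per the labels' protocols, total RNA of 1 culture was taken up in Trizol and 150 ng of it were turned into biotinylated cRNA. Each probe set has 1 deposited value, a linear signal intensity. Per the submitters' processing notes the authors used Affymetrix Expression Console. Its algorithm and version, and how background was corrected, are not given in the sources read here. The mean of all signals trimmed by 2% at each end was 150.0, and whether the authors scaled to a target is not stated. No detection call was used here.

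Of 45101 probe sets, 34945 named 1 gene in the platform annotation, and 34741 of these took their symbol through the gene ID from RefSeq (GRCm38.p6), including all 108 of the receptors. Others were left out. Signals were compared with the lower threshold and the upper threshold defined in the report. With 1 array no test was possible, and its number limits the precision. Calling was run on simulated data in which expressed genes were set far above the background. False calls were scored there only for genes with 1 probe set, so the error for genes with several is not known. Members, lists and thresholds were chosen with earlier results of these data known. The text names every receptor, the 3 highest and the lowest gene of each companion list, genes on which a receptor's account turns, and a few others, marked where they occur as named with their values known. Alternatives changed the lower threshold, the background set, the upper threshold, the probe sets admitted, the symbols and the rule that combines probe sets. Promoter sequences are from RefSeq. Python 3.11.15, numpy 2.4.6, pandas 2.3.3 and matplotlib 3.10.9 were used.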

Additional observations from a re-analysis of the deposited data

How the results depend on the processing

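Counts of receptors stayed within 1.5 times of the reported ones except under the alternatives that follow. With the lower threshold at the median plus 3 median absolute deviations of the background, at a signal of 94.6 and so above the upper threshold, 13 receptors and 21 of their probe sets were above the lower threshold in place of 24 and 57. Pparg, at 94.4, was among the 11 that no longer passed. Over the array, 42.4% of genes and 34.8% of one-gene probe sets were above that threshold, in place of 63.3% and 60.9%. When all probe sets of a gene had to pass, 11 receptors were above the lower threshold and 5 above the upper one in place of 18, because 1 dim probe set suffices to fail a gene. The shares of all genes under that rule were 47.0% and 27.3%. By the median over probe sets, 11 of 42 receptors were above the upper threshold, beside 41.0% of all genes. The lower threshold at the 90th or 99th percentile gave 27 and 20 receptors, receptors of smell and taste alone gave 26, and leaving out probe sets ending in _s_at or _x_at gave 23, the gene lost being Esrrb. The shares of all genes in these settings were, in turn, 66.7%, 52.8%, 65.4% and 62.5%. Thrb and Pgr passed at the 90th percentile and with receptors of smell and taste alone, Esrrg at the 90th percentile, and Ppara, Rorb, Nr1h4 and Nr3c2 did not pass the 99th percentile. No paired analysis was possible because there was 1 sample, and no replicate could be left out.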
